A study of Mus musculus with 11 samples.

Results

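Cyp2b9, Cyp2b10 and Cyp2b13 encode cytochrome P450 enzymes of the mouse liver, and their RNA was followed here in 11 whole livers. The 3 genes were taken by their symbols from a table of 55414 genes, which holds 7 symbols that start with Cyp2b. All livers came from male Clec4f-DTR mice, which express a diphtheria toxin (DT) receptor from the Clec4f promoter, active in Kupffer cells, the macrophages that reside in liver. Mice were put on a diet at 8 weeks of age for 16 weeks. Chow was fed to the donors of 3 livers (chow livers). The donors of 8 livers ate a western diet and drank alcohol, and had repeated injections either of saline (4 saline livers) or of DT (4 DT livers). Every mouse carried the receptor, and the chow labels name no injection, so injection and diet cannot be told apart in comparisons with chow. The 3 genes were chosen with their values in these livers known. Their levels and fold changes are therefore a description and carry no test. Tests are given for other genes of the same pathways.

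Cyp2b enzymes oxidise drugs, steroids and fatty acids. Cyp2b10 is the standard mouse target of CAR (constitutive androstane receptor, gene Nr1i3), a nuclear receptor that moves from the cytosol to the nucleus when hepatocytes meet phenobarbital and similar compounds, and that binds DNA with RXR alpha (Rxra). Cyp2b9 and Cyp2b13 are known as female-predominant genes of mouse liver, kept low in males by the pulsed pattern of growth hormone and its signal through STAT5. CAR activators act on Cyp2b10 through an enhancer that lies farther upstream than the stretches printed here.

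The DNA just upstream of the genes is shown because Cyp2b9 and Cyp2b13 are near copies there and Cyp2b10 is not. RefSeq promoters on GRCm38.p6 were found for all 3 genes and for their relatives Cyp2b19 and Cyp2b23. Over the 250 bases before the start site, Cyp2b9 and Cyp2b13 differed at 2 bases (identity 99.2%), written T48C and C104T with the Cyp2b9 base first and positions counted from 1 at the 5′ end of each printed stretch. Cyp2b10 had 75.8% identity with each of them over 240 aligned bases, gaps left out. The start site here is that of the RefSeq promoter, at the end of the 250 bases. In Cyp2b9 and Cyp2b13 a transcript is annotated to start earlier, after base 143. The bases after it thus lie inside an annotated gene and are not printed. The stretches below end before the first annotated transcript start, are on the plus strand and are given 5′ to 3′, with capitals for the nuclear receptor half-site AGGTCA. They lie at chr7:26173159-26173301 for Cyp2b9, chr7:26061245-26061387 for Cyp2b13 and chr7:25897408-25897657 for Cyp2b10.
Cyp2b9: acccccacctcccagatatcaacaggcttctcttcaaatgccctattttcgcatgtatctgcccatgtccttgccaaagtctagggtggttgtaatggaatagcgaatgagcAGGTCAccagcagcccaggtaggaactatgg
Cyp2b13: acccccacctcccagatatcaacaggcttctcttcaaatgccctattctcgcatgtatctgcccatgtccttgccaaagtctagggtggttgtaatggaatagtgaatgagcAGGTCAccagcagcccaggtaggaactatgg
Cyp2b10: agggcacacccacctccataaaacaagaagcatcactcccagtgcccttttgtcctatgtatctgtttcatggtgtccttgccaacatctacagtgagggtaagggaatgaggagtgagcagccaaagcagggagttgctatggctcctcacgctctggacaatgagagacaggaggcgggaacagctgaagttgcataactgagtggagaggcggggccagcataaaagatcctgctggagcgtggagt
AGGTCA, searched on both strands of the 250 bases, began 138 bases before the RefSeq promoter start site in both Cyp2b9 and Cyp2b13. It is thus closer to their first annotated transcript start. AGGTCA was also in the windows of Cyp2b19 and Cyp2b23 and not in that of Cyp2b10. Of 32851 RefSeq promoter windows of this length, 14.0% held it. The half-site variant AGTTCA (11.8% of windows) and the STAT5 core TTCNNNGAA (7.02%) were in none of the 5 Cyp2b windows.

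Sequence likeness also bears on how reads were counted. In GENCODE M21 transcripts, the 1476 coding bases of Cyp2b9 and Cyp2b13 were 92.7% identical (108 differences), those of Cyp2b9 and Cyp2b10 87.7% and those of Cyp2b10 and Cyp2b13 88.7%. Reads can be told apart where differences cluster, and the 90 coding bases with the most differences between Cyp2b9 and Cyp2b13 (coding bases 1037 to 1126, counted from the start codon) are printed for that reason. Capitals mark the 17 bases at which Cyp2b9 and Cyp2b13 differ, and in Cyp2b10 the 15 bases that differ from Cyp2b9.
Cyp2b9: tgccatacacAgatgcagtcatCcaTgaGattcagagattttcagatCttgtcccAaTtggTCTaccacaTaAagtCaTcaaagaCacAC
Cyp2b13: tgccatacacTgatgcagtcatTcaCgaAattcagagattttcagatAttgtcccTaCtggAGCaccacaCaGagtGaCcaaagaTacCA
Cyp2b10: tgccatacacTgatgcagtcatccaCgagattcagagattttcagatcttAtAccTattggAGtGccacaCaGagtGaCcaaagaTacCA
Of all 50-base windows of the transcript, 27.3% in Cyp2b13, 11.2% in Cyp2b9 and 9.70% in Cyp2b10 had an exact copy in another gene. At 100 bases these shares were 9.29%, 1.18% and 0%, and at 150 bases 5.04%, 0% and 0%. The Cyp2b9 windows shared at 100 bases were all in Cyp2b13, and those of Cyp2b13 were mostly in Gm45225, a pseudogene (151 of 165). The read length and the handling of reads with several matches are not given in the sources used here. Cyp2b13 is thus the member whose counts are least certain, and Cyp2b9 and Cyp2b10 counts are little exposed at read lengths of 100 bases or more.

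Library totals ran from 43995217 to 58089531 counts, and 17038 genes were tested. Levels are counts per 1000000 library counts (CPM) after TMM scaling. A count of 3, taken as the detection limit for counting error only, equals 0.0398 to 0.0773 CPM. The 10 hepatocyte markers, Alb among them, summed to 126740 to 142658 CPM in chow, 106622 to 125694 CPM in saline and 82249 to 112158 CPM in DT livers, with none at 0. DT liver 2 stood apart from the other DT livers in many genes. Counts called without it are given below for the CAR targets and the sex-dependent genes, though not in every comparison. For the other lists, the refits shown are mostly those that ended a call. Whole liver RNA cannot tell fewer cells of a type from less RNA per cell.

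Cyp2b9 RNA was low in chow livers, though above the detection limit, and far higher in every saline liver. Chow livers 1 to 3 had 0.464, 0.471 and 0.669 CPM. Saline livers 1 to 4 had 35.3, 108, 13.4 and 27.1 CPM, so the lowest saline liver lay above the highest chow liver. DT livers 1 to 4 had 64.5, 32.8, 1.67 and 3.67 CPM. DT livers 1 and 2 were within the saline range, while DT livers 3 and 4 lay below every saline liver and above every chow liver. Group means were 0.534 ± 0.117 CPM (SD, n = 3) in chow, 45.9 ± 42.3 CPM (SD, n = 4) in saline and 25.7 ± 29.6 CPM (SD, n = 4) in DT livers. The log2 fold change (log2 FC) was 6.42 (SE 1.44) for saline against chow and 5.58 (SE 1.40) for DT against chow. Of all genes tested, 14.8% were higher in every saline liver than in every chow liver, and 14.8% were higher in every DT liver than in every chow liver. Between DT and saline livers the log2 FC of Cyp2b9 was -0.84 (SE 0.95), smaller than its SE. It was 0.02 with saline liver 2 left out, so its negative sign was lost without that 1 liver. With DT livers 1 and 2 left out it was -4.10. That choice was made after seeing the data and removes the 2 DT livers with the highest Cyp2b9.

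Cyp2b10 was the member whose DT livers all lay above the saline livers. DT livers 1 to 4 had 67.1, 15.0, 18.0 and 43.7 CPM, and saline livers 1 to 4 had 4.24, 2.66, 0.787 and 1.51 CPM. Of all genes tested, 9.33% were higher in every DT liver than in every saline liver. Chow livers 1 to 3 were at 4.25, 1.72 and 20.1 CPM, a range that took in DT livers 2 and 3 and saline livers 1 and 2. The means were 8.70 ± 9.97 CPM (SD, n = 3) in chow, 2.30 ± 1.51 CPM (SD, n = 4) in saline and 36.0 ± 24.4 CPM (SD, n = 4) in DT livers. The log2 FC was 3.97 (SE 0.81) for DT against saline, and between 3.49 and 4.45 when any 1 liver was left out. For saline against chow it was -1.92 (SE 0.80), and -0.37 without chow liver 3, the chow liver with the high level. For DT against chow it was 2.05 (SE 0.82), and 3.60 without chow liver 3.

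Cyp2b13 was the scarcest of the 3. Chow livers 1 to 3 held 1, 0 and 3 counts, at or under the detection limit. Saline livers 1 to 4 held 13, 135, 3 and 26 counts (0.265, 2.75, 0.0549 and 0.554 CPM), and saline liver 3 lay within the chow range. DT livers 1 to 4 held 265, 44, 27 and 47 counts (3.96, 0.916, 0.381 and 0.623 CPM), all above the chow livers and overlapping the saline livers. A level above every chow liver in all DT livers was found for 14.8% of all genes tested. With 4 Cyp2b13 counts in all of chow, its pooled ratio to chow was 29.0 in saline livers (exact 95% interval of counting error 11.1 to 108). In DT livers this ratio was 48.0 (18.6 to 177). These intervals leave out the spread between livers and take each count as a separate read. They are too narrow if both mates of a pair were counted. For DT against saline the log2 FC was 0.70 (SE 0.98), and it was -0.50 without DT liver 1 and 2.34 without saline liver 2. Cyp2b13 thus shared with Cyp2b9 the low chow level and the high values of saline liver 2 and DT liver 1, but DT livers 3 and 4 did not fall below the saline range.

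**Figure D1:**
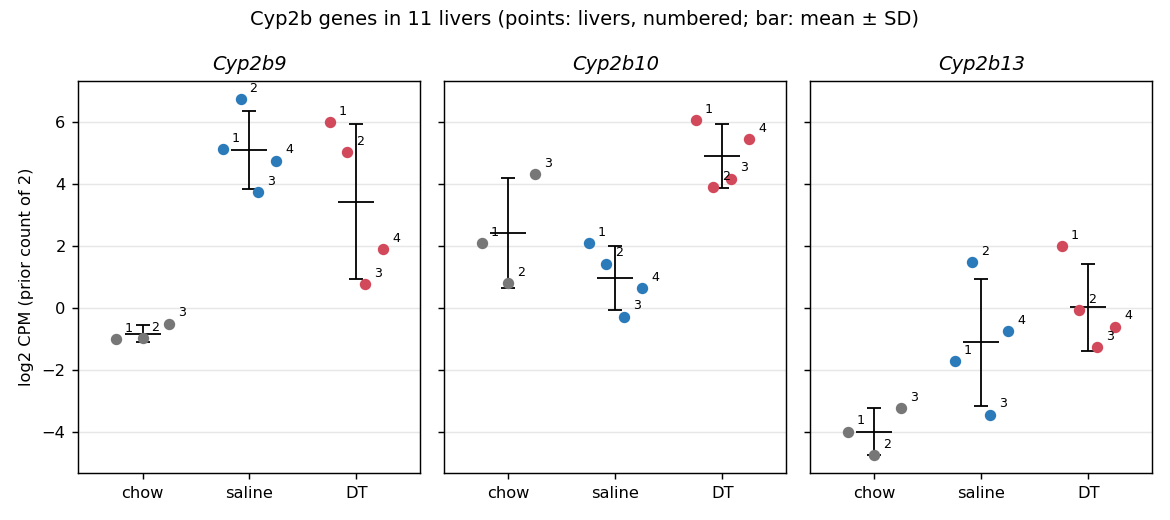
Each panel plots the log2 CPM (vertical axis, prior count of 2) of 1 Cyp2b gene in the 11 livers, grouped on the horizontal axis as chow, saline and DT, with livers numbered and the mean ± SD as a black bar. Cyp2b9 is low in the 3 chow livers and spread out in the 4 DT livers, while the 4 DT livers of Cyp2b10 all lie above the 4 saline livers.

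The other Cyp2b symbols were at or near 0. Cyp2b23 and Cyp2b26-ps had 0 counts in all 11 livers, Cyp2b19 had 1 count in saline liver 1, and Cyp2b27-ps had 2 counts in each of DT livers 1 and 4. Gm45225, looked up because it shares windows with Cyp2b13, held 5, 12, 0 and 1 counts in saline livers 1 to 4, 4, 3, 0 and 2 in DT livers 1 to 4, and 0 in each chow liver. Its highest liver was saline liver 2, where Cyp2b9 was also highest and Cyp2b13 was highest among the saline livers. Whether these counts are reads of Cyp2b13 was not tested.

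The make-up of Cyp2b RNA differed between chow and saline livers. Per transcript length (CPM per kb of the longest coding transcript), Cyp2b10 was above Cyp2b9 by 8.98, 3.58 and 29.4 times in chow livers 1 to 3. Cyp2b9 was above Cyp2b10 by 8.49, 41.3, 17.4 and 18.3 times in saline livers 1 to 4. DT livers did not follow 1 pattern. The ratio of Cyp2b9 to Cyp2b10 was 0.982 in DT liver 1 and 2.24 in DT liver 2, while Cyp2b10 was above Cyp2b9 by 10.6 and 11.7 times in DT livers 3 and 4. As a share of the counts of the 3 genes, Cyp2b9 made up 9.78% (exact 95% interval 5.90 to 15.0%), 21.5% (14.1 to 30.5%) and 3.21% (2.16 to 4.57%) in chow livers 1 to 3. In saline livers it made up 88.7% (87.2 to 90.0%) in liver 1, 95.2% (94.6 to 95.8%) in liver 2, 94.1% (92.2 to 95.6%) in liver 3 and 92.9% (91.4 to 94.2%) in liver 4. In DT livers it made up 47.6% (46.6 to 48.6%) in liver 1, 67.4% (65.4 to 69.3%) in liver 2, 8.30% (6.92 to 9.86%) in liver 3 and 7.64% (6.80 to 8.56%) in liver 4. Chow and saline livers did not overlap in this share, DT livers 1 and 2 fell between them, and DT livers 3 and 4 lay within the chow range. Cyp2b13 was below 3% of the counts in every liver. The intervals cover counting error only and take each count as a separate read, so they are too narrow if both mates of a pair were counted.

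**Figure D2:**
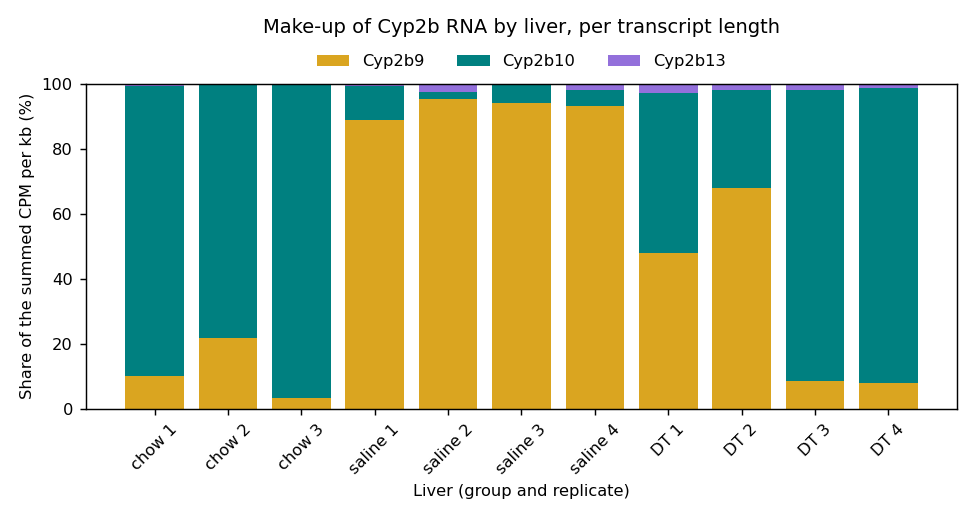
Stacked bars give the share (vertical axis, %) of Cyp2b9, Cyp2b10 and Cyp2b13 in their summed CPM per kb for each of the 11 livers (horizontal axis). Cyp2b10 fills most of the bar in the 3 chow livers and in DT livers 3 and 4, Cyp2b9 in the 4 saline livers, and DT livers 1 and 2 hold large parts of both.

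The genes most like each member were found by the root mean square difference in log2 CPM over the 11 livers, after each gene was centred on its own mean. For Cyp2b9, among 9764 genes, they were Scd1 (1.52), Scd3 (1.58), Vldlr (1.69), Srebf1 (1.74) and Angptl8 (1.80), against an SD of 2.93 for Cyp2b9 itself. Scd1, a fatty acid desaturase, was at 1526 to 2425 CPM in chow, 26278 to 37209 CPM in saline and 8122 to 17191 CPM in DT livers. For Cyp2b10 they were Htra3 (1.01), Dkk3 (1.20), Adamtsl2 (1.24), Sox9 (1.25) and Abcc4 (1.28), against an SD of 2.10. Sox9, a bile duct transcription factor, had levels of 2.30 to 3.80 CPM in saline livers, while DT livers 1 to 4 had 28.9, 5.56, 21.8 and 39.2 CPM. For Cyp2b13 they were Cyp2a22 (1.35), Igfbp5 (1.36), Cxcl1 (1.38), Vldlr (1.39) and Slc1a4 (1.41), against an SD of 2.19. The lists of Cyp2b9 and Cyp2b13 share Vldlr, a lipoprotein receptor, and that of Cyp2b10 shares no gene with either. Only genes with a mean log2 CPM of 2 or more could be listed. This left out Cyp2b13 as a candidate for the lists of Cyp2b9 and Cyp2b10. Cyp2b9 and Cyp2b10 passed this level and were compared with Cyp2b13, and neither was among the genes listed for it. All points share the same 11 livers.

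Nr1i3, which encodes CAR, was at 389, 384 and 436 CPM in chow livers, at 247, 280, 241 and 298 CPM in saline livers, and at 97.0, 354, 85.5 and 75.2 CPM in DT livers 1 to 4. Every saline liver lay below the chow livers, and DT livers 1, 3 and 4 lay below those again, while DT liver 2 was above the saline livers. By edgeR's quasi-likelihood test Nr1i3 was not called for saline against chow (log2 FC -0.60, adjusted p = 0.495) or for DT against saline (-0.80, adjusted p = 0.184). Without DT liver 2 the DT against saline difference was -1.63 and was called (edgeR adjusted p = 8.58e-06), the only one of 11 refits that called it. The saline against chow difference was also called only in that refit (-0.60, edgeR adjusted p = 0.00913). It was called lower for DT against chow (-1.40, SE 0.45, adjusted p = 0.0435), a call kept in 1 of 11 refits that each left out a liver (highest adjusted p = 0.117, without DT liver 3). Without DT liver 2 the DT against chow difference was -2.23. RNA level does not show how much CAR is in the nucleus.

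Nr1i2, the gene of PXR, a relative of CAR with overlapping targets, fell in saline against chow livers (72.0 ± 7.97 against 112 ± 6.43 CPM, log2 FC -0.63, SE 0.12, edgeR adjusted p = 0.0138). It rose in DT against saline livers (0.43, SE 0.12, edgeR adjusted p = 0.0225, at 95.4, 109, 101 and 83.1 CPM in DT livers 1 to 4). Each of these calls ended when 1 liver was left out (highest adjusted p = 0.0645 without chow liver 2, and 0.0652 without saline liver 1). Rxra, the DNA-binding partner of CAR, fell in DT against saline livers (-0.58, edgeR adjusted p = 0.0218) and so did Egfr, the receptor whose signal holds CAR in the cytosol (-1.34, edgeR adjusted p = 0.034), but scaling by the total count ended both calls (adjusted p = 0.116 and 0.0622). Leaving out saline liver 4 ended them too (adjusted p = 0.0667 and 0.106, with Egfr at -0.89). Of the 13 genes of CAR and its partners, 1 was called lower for saline against chow, where 3.13% of all genes were called lower and 2.45% higher. For DT against saline 1 was called higher and 2 lower, a share of 23.1% against 21.9% of all genes. For DT against chow 3 were called lower (Egfr, Hnf4a and Nr1i3), a share of 23.1% against 23.0%. The Hnf4a call (-0.62, edgeR adjusted p = 0.036) was kept in 3 of 11 refits (highest adjusted p = 0.125, without chow liver 3). It ended under total count scaling (-0.18, adjusted p = 0.367) and with the 2 groups alone (adjusted p = 0.101). That of Egfr ended without chow liver 1 (adjusted p = 0.0896).

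Of 31 other genes known to be raised by CAR activators, 30 were tested. For saline against chow, where 5.58% of all genes were called, edgeR called 1 of them, a fall of Gadd45b, a stress and growth regulator (log2 FC -2.23, SE 0.46, adjusted p = 0.0185). That call ended without chow liver 2 (adjusted p = 0.064). At an unadjusted p below 0.05 there were 8. DESeq2 called 4 and limma-voom 0, where they called 10.7% and 4.18% of all genes. With the 2 groups alone edgeR called 12 (4 higher and 8 lower), where it called 20.1% of all genes. The list's median log2 FC was -0.01, against 0.00 over all genes. Cyp2c29, a P450 that CAR activators raise, was at 489 to 649 CPM in chow and 1093 to 1904 CPM in saline livers without being called (1.29, adjusted p = 0.263).

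For DT against saline, 12 of the 30 CAR targets were called (40.0%, against 21.9% of all genes), 6 higher and 6 lower, where 14.3% of all genes were called higher and 7.62% lower, with a median log2 FC of -0.45 against 0.02 over all genes. Thus they did not follow Cyp2b10 as a block. Higher were Gsta1, Gadd45b, Gsta2, Abcc4, Gstm3 and Akr1b7. Gsta1, a glutathione transferase, was at 1.20, 1.06, 1.43 and 0.575 CPM in saline and at 30.8, 1.62, 8.33 and 8.64 CPM in DT livers 1 to 4 (log2 FC 3.53, SE 0.69, adjusted p = 0.00834). By limma-voom its adjusted p was 0.0592. Abcc4, an export pump of bile acids and drugs, was at 3.19 to 8.86 CPM in saline and at 55.2, 5.14, 29.4 and 27.6 CPM in DT livers (2.27, SE 0.55, adjusted p = 0.0159), and its call ended without saline liver 4 (adjusted p = 0.0502). In both genes DT liver 1 was highest and DT liver 2 lowest of the DT livers, the order also seen at the ends of the Cyp2b10 values. Gadd45b rose by 2.19 (adjusted p = 0.009) and Gsta2 by 1.84 (adjusted p = 0.0121).

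Lower among the CAR targets in DT against saline livers were Ugt2b34, Abcc2, Alas1, Abcc3, Ugt1a1 and Ugt2b35. Alas1, the rate-limiting enzyme of haem synthesis, was at 482 to 1254 CPM in saline and at 241, 272, 294 and 286 CPM in DT livers (log2 FC -1.56, SE 0.30, edgeR adjusted p = 0.00782). Abcc2, an export pump for conjugates into bile, was at 719 to 795 CPM in saline and 401 to 531 CPM in DT livers (-0.72, SE 0.13, adjusted p = 0.00727). Ugt2b34, a glucuronidation enzyme, fell by 1.02 (adjusted p = 0.00673) and Abcc3, an export pump into blood, by 0.73 (adjusted p = 0.0171), and the Abcc3 call was lost without DT liver 3 (adjusted p = 0.0585) or when scaled by total counts (adjusted p = 0.0714). The Cyp2c genes of the list were not called, Cyp2c29 with 466, 1146, 151 and 132 CPM in DT livers 1 to 4 (-1.56, adjusted p = 0.0684) and Cyp2c55 with 29.4, 1.33, 3.73 and 4.57 CPM (1.87, adjusted p = 0.0976). Without DT liver 2, 21 of the CAR targets were called, 7 higher and 14 lower, and the share called of all genes went up to 40.3%. Under total count scaling 13 were called, 8 higher and 5 lower, while 33.0% of all genes were called and 92.1% of those calls were higher.

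DT against chow shares its livers with the other comparisons and is given beside them. Here 12 of the 30 CAR targets were called (40.0%, against 23.0% of all genes), 5 higher and 7 lower, where 14.8% of all genes were called higher and 8.16% lower. Under total count scaling 9 were called, 6 higher and 3 lower, while 38.4% of all genes were called and 94.8% of those calls were higher. Gsta1 rose by 5.90, Gstm3 by 4.67, Abcc4 by 2.66 and Cyp2c55 by 3.24 (edgeR adjusted p = 0.00359, 0.00833, 0.0128 and 0.0278), and Akr1b7 also rose. Calls of Abcc4 and Cyp2c55 ended in refits without 1 liver (highest adjusted p = 0.0566 without chow liver 1, and 0.1 without chow liver 2). Without DT liver 1 the Cyp2c55 difference was 1.65. Cyp3a11, the main PXR-induced P450, fell by 0.94 (adjusted p = 0.00549), Abcc2 by 0.79 (adjusted p = 0.00523), Abcc3 by 0.91 (adjusted p = 0.00865) and Papss2, which makes the sulfate donor, by 0.83 (adjusted p = 0.0131). Scaling by total counts ended the calls of Cyp3a11, Abcc3 and Papss2 (adjusted p = 0.0572, 0.053 and 0.191), and limma-voom those of Gsta1, Abcc4 and Cyp2c55 (adjusted p = 0.0851, 0.0833 and 0.161). The count was 5 without chow liver 1, where 10.1% of all genes were called, and 19 without DT liver 2 (5 higher and 14 lower), where 40.3% were.

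**Figure D3:**
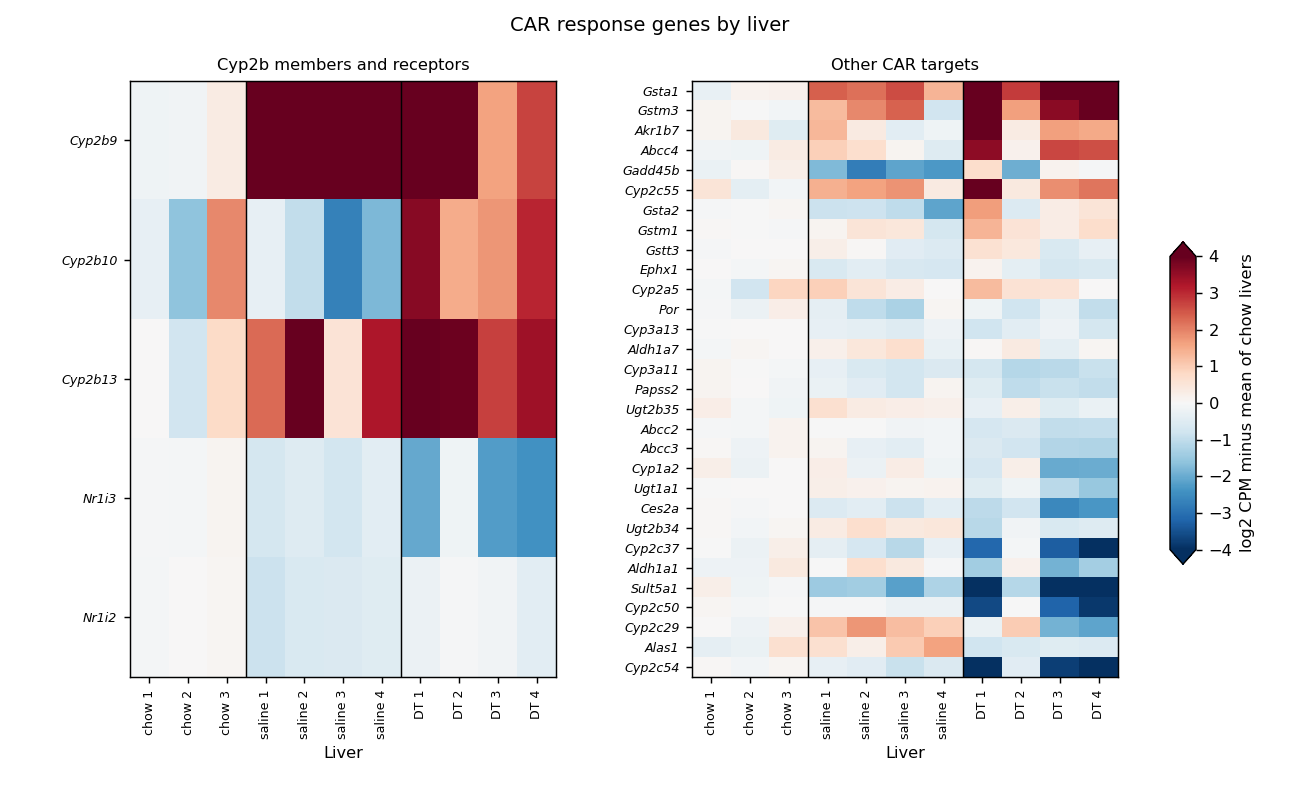
Colours give log2 CPM minus the mean of the chow livers, from -4 (blue) to 4 (red), for 11 livers (horizontal axis), with the 3 Cyp2b genes, Nr1i3 and Nr1i2 at left and the 30 tested CAR targets at right, ordered by their DT against saline difference. Gsta1, Gstm3 and Abcc4 are red in DT livers 1, 3 and 4, where Nr1i3 is blue, and many targets at the bottom of the list are blue in the same 3 livers.

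Because Cyp2b9 and Cyp2b13 are female-predominant, genes with the same or the opposite sex difference were examined in these male mice. Of 18 tested female-predominant genes, 1 rose and 1 fell for saline against chow (11.1% called, against 5.58% of all genes). Ntrk2, a neurotrophin receptor, rose from 0.508 to 4.07 CPM in chow to 24.7 to 36.9 CPM in saline livers (log2 FC 3.36, SE 0.50, edgeR adjusted p = 0.00405). Cux2, a repressor of male genes in female liver, was at 13.9, 21.7 and 2.24 CPM in chow livers and at 0.264 to 0.695 CPM in saline livers (-4.62, SE 0.88, adjusted p = 0.0126), and the call was lost without chow liver 2 (adjusted p = 0.0549) and by limma-voom (adjusted p = 0.155). So the genes of this list did not share the saline rise of Cyp2b9 as a group.

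For DT against saline, 7 of the 18 female-predominant genes were called (38.9%, against 21.9% of all genes), 5 higher and 2 lower. Cyp2a4, a steroid hydroxylase of the same gene cluster, was at 4.88 to 7.27 CPM in saline livers and at 1075, 5.47, 319 and 157 CPM in DT livers 1 to 4 (log2 FC 6.04, SE 1.18, edgeR adjusted p = 0.00877). DT liver 2 was within the saline range and the other DT livers were far above it. By limma-voom its adjusted p was 0.0603. Cyp2a4 is near-identical to Cyp2a5, so its separate level is uncertain. Cyp17a1, a steroid enzyme, rose by 3.97, Cux2 by 4.12 and Fmo2, a flavin monooxygenase, by 1.99 (adjusted p = 0.00678, 0.00943 and 0.00775), with 0.0966 for Cux2 by limma-voom. The 2 that fell were Cyp2c69 (-1.18, adjusted p = 0.0181) and Prlr, the prolactin receptor (-0.81, adjusted p = 0.027), and these calls ended without saline liver 2 (adjusted p = 0.0582) and without DT liver 3 (adjusted p = 0.0881). Under total count scaling 6 were called higher and 1 lower, and Prlr was not called (adjusted p = 0.0575). For DT against chow 10 were called (55.6%, against 23.0%), 6 higher, Ntrk2 and Cyp2a4 among them, and 4 lower. All 4 that fell are P450 genes, Cyp3a44, Cyp3a16 and Cyp2c69 among them. Total count scaling gave 8 higher and 1 lower, without Cyp3a44 and Cyp3a16 (adjusted p = 0.356 and 0.531). The count without chow liver 1 was 3 (10.1% of all genes called), and without DT liver 2 it was 14, 9 higher and 5 lower (40.3% of all genes called).

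Male-predominant genes were called in 1 direction only by edgeR's test over the 3 groups. For saline against chow 4 of 19 fell and none rose (21.1%, against 5.58% of all genes). Selenbp2 fell by 3.71, Gstp1, a glutathione transferase, by 1.30 and Serpina1e, a protease inhibitor, by 2.82 (edgeR adjusted p = 0.00857, 0.0095 and 0.0437). The Serpina1e call ended without chow liver 1 (adjusted p = 0.124) and by limma-voom (adjusted p = 0.101). Moxd1, the fourth, was at 144, 92.9 and 22.3 CPM in chow and at 0, 0.0407, 0 and 2.13 CPM in saline livers. With the 2 groups alone in the fit 3 rose and 8 fell (20.1% of all genes called), and without DT liver 2 these were 3 and 5 (11.4% of all genes called). In DT against saline livers 6 fell and none rose (31.6%, against 21.9%). Nudt7, a peroxisomal hydrolase, was at 165 to 299 CPM in saline and at 25.5, 94.4, 33.9 and 28.3 CPM in DT livers (-2.27, SE 0.41, adjusted p = 0.00678). Keg1 fell by 1.61, Cyp4a12b, a fatty acid hydroxylase, by 1.51 and Cyp7b1, an oxysterol hydroxylase, by 1.70 (adjusted p = 0.00919, 0.0229 and 0.0266). The Cyp4a12b call ended without DT liver 4 (adjusted p = 0.0731), and that of Cyp7b1 without saline liver 4 (adjusted p = 0.0789). For DT against chow 11 fell and none rose (57.9%, against 23.0%). Without DT liver 2, 15 fell against saline and 19 against chow, with 40.3% of all genes called in each. Without saline liver 1 the first count was 2, with 13.6% of all genes called.

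**Figure D4:**
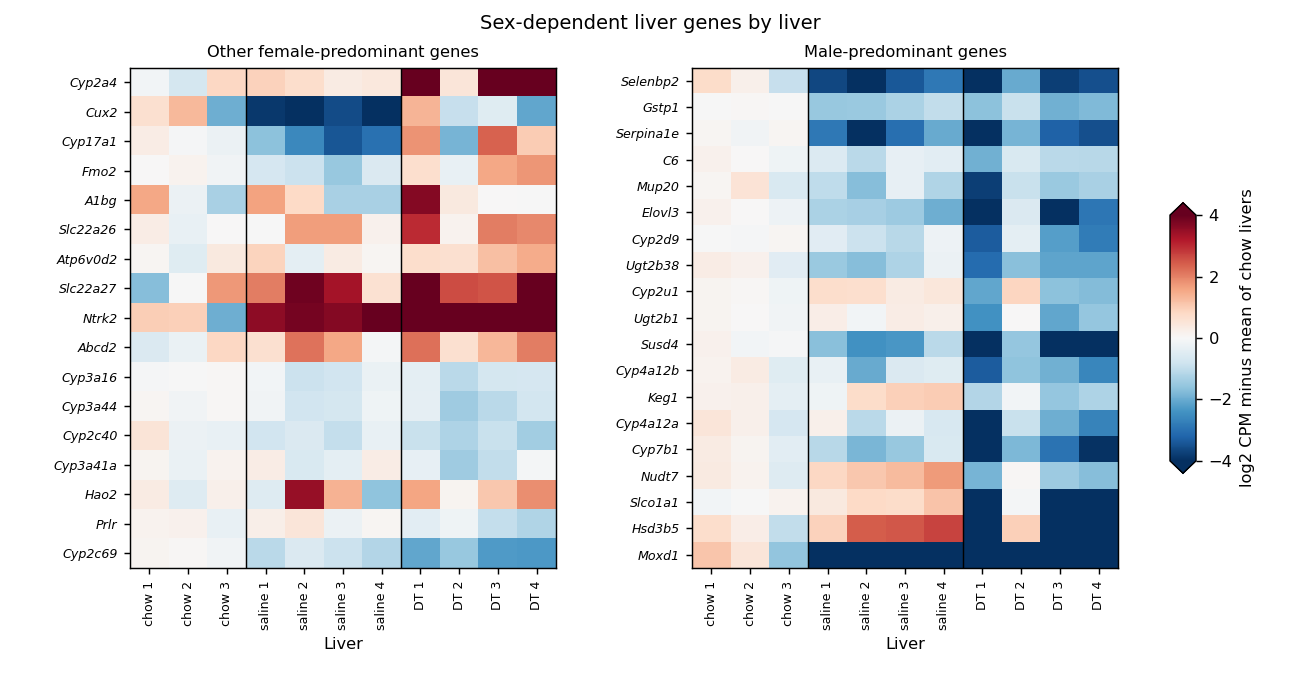
Colours give log2 CPM minus the mean of the chow livers, from -4 (blue) to 4 (red), for 11 livers (horizontal axis), with tested female-predominant genes other than the members at left and 19 male-predominant genes at right. DT livers 1, 3 and 4 are blue in most male-predominant genes, DT liver 2 is closer to the saline livers, and Ntrk2 is red in all 4 saline and all 4 DT livers.

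Genes of the growth hormone axis, which sets the sex pattern, were read in the same fit. Of 12 genes 1 rose for saline against chow (8.33%, against 5.58% of all genes), Lepr, the leptin receptor (log2 FC 3.99, edgeR adjusted p = 0.0485), a call kept in 4 of 11 refits without 1 liver (highest adjusted p = 0.168, without chow liver 1). In DT against saline livers 4 fell and none rose (33.3%, against 21.9% of all genes). Ghr, the growth hormone receptor, was at 500 to 617 CPM in saline and at 88.1, 419, 167 and 207 CPM in DT livers 1 to 4 (-1.37, SE 0.36, adjusted p = 0.0205). Igf1, the growth factor made on its signal, fell by 0.70 and Foxa1 by 0.93 (adjusted p = 0.0465 and 0.0294). The calls of Ghr, Igf1 and Foxa1 each ended in some refits, with a highest adjusted p of 0.0625 for Ghr (without DT liver 3), and 0.127 for Igf1 and 0.083 for Foxa1 (both without saline liver 4). Scaling by total counts ended that of Igf1 (adjusted p = 0.195). For DT against chow 2 were called (16.7%, against 23.0% of all genes): Lepr rose and Igf1 fell (4.02 and -0.88, edgeR adjusted p = 0.0198 and 0.0243), and both calls ended in some refits (adjusted p = 0.0749 without chow liver 3 and 0.101 without chow liver 2). Without DT liver 3 the Lepr difference was 2.61.

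Other Cyp2 genes of the same gene cluster did not follow the members as a block. Of 12 listed, 7 were tested. Cyp2a22 rose for saline against chow, from 2.88 to 5.65 CPM to 14.0 to 38.7 CPM (log2 FC 2.32, SE 0.39, edgeR adjusted p = 0.00723), and its highest liver was saline liver 2, as for Cyp2b9. It was not called for DT against saline (-0.29, adjusted p = 0.555). Cyp2s1 rose for DT against saline, from 0 to 0.285 CPM to 1.90, 0.416, 1.75 and 1.59 CPM in DT livers 1 to 4 (3.52, adjusted p = 0.0287), a call kept in 5 of 11 refits (highest adjusted p = 0.0699, without DT liver 3). Cyp2a5 (0.18, adjusted p = 0.733) and Cyp2f2 (-0.38, adjusted p = 0.22) were not called for DT against saline. Of the 7, 14.3% were called for saline against chow (5.58% of all genes) and 28.6% for DT against saline (21.9% of all genes). For DT against chow 57.1% were called (23.0% of all genes), as Cyp2a22, Cyp2a4 and Cyp2s1 rose and Cyp2f2 fell (-0.92, edgeR adjusted p = 0.0165, and 0.071 without chow liver 2).

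Markers of several liver cell types also differed between DT and saline livers. The 8 pericentral hepatocyte markers, which mark the zone where Cyp2b genes are mainly expressed, summed to 13844 to 17380 CPM in chow, 13156 to 17394 CPM in saline and 4587, 12999, 2885 and 2764 CPM in DT livers 1 to 4. Most of each sum came from 1 marker, so it does not show the 8 falling together. For DT against saline 3 of them were called lower and none higher (37.5%, against 21.9% of all genes). The 8 bile duct markers summed to 20.3 to 46.3 CPM in saline and to 358, 28.6, 231 and 409 CPM in DT livers. All 8 were called higher by edgeR for DT against saline, where 14.3% of all genes were called higher and 7.62% lower. The 8 stellate cell markers summed to 192 to 369 CPM in saline and to 625, 281, 584 and 677 CPM in DT livers, with 6 called higher. The 8 Kupffer cell markers summed to 285 to 391 CPM in saline and to 168, 199, 145 and 121 CPM in DT livers, with 7 called lower. The 8 endothelial and leukocyte markers summed to 180 to 197 CPM in saline and 172 to 176 CPM in DT livers, with 1 called higher and 1 lower. Itgax, an integrin of dendritic cells and some macrophages, rose (edgeR adjusted p = 0.0127). Its saline livers had 1.38 to 4.63 CPM, DT liver 2 had 3.68 CPM and the other DT livers had 19.4 CPM or more. Stab2, an endothelial scavenger receptor, fell (mean 96.6 to 73.1 CPM, edgeR adjusted p = 0.0404), and Ptprc, the gene of the leukocyte marker CD45, was not called, with 6.91, 10.3, 27.3 and 29.9 CPM in the 4 DT livers in order. No marker list had a gene at 0 in every liver of a group. Cyp2b10 was highest in DT livers 1 and 4 (67.1 and 43.7 CPM), whose pericentral sums were low and bile duct sums high. DT liver 3 had a low pericentral and a high bile duct sum too. Its Cyp2b10 (18.0 CPM) was close to that of DT liver 2 (15.0 CPM), whose 2 sums were near the saline values. The part of these cells in the Cyp2b values was not tested.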

How the data were processed

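RNA of 11 whole livers was analysed, with 1 library each. Per the submitters' processing notes, FastQC, STAR and featureCounts were used with GRCm39. Versions, annotation release, strand setting, read length and the handling of multiple matches and of read mates are not given in the sources used here. The authors deposited 1 table of unnormalised read counts by Ensembl gene, which also gives the symbols. The extraction text describes sorted CD45-positive cells for single-cell work, whereas the sample labels name whole liver and hepatocyte transcripts were abundant. Of low counts (1 to 20), 18.5 to 23.4% were odd, so both mates of a pair may have been counted, and halved counts were tried.

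Genes were kept with filterByExpr (17038 of 28842 genes with any count) and scaled by TMM. They were fitted with edgeR 4.0.16 (quasi-likelihood, robust, 1 mean per group, 8 residual degrees of freedom, common biological variation 30.1%; limma 3.58.1, DESeq2 1.42.0, R 4.3.3). Tests are two-sided with Benjamini-Hochberg adjustment over all tested genes, called below 0.05. "Rose" and "fell" are used of called genes. Log2 CPM used a prior count of 2. Where nothing says that livers of a group came from separate cages or days, p-values measure only the spread between these livers. The scripts were tested on simulated data. Within a group, at most 0.418% of genes with 100 or more counts had equal counts in any 2 libraries, so none were copies.

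The members and lists were chosen with earlier results of these data known. Named genes are the members, Nr1i3 and Nr1i2, up to 4 called genes with the smallest p per list and direction, the 5 genes most like each member (mean log2 CPM 2 or more), and every other Cyp2b symbol. Others were named after their values were seen: Gm45225, Cyp2c29, Cyp2c55, Cyp2a5 and Cyp2f2 where not called, and lists of 6 or fewer called genes. Sequences are from RefSeq (GRCm38.p6) and GENCODE M21, aligned with Biopython 1.88. Alternatives were other scalings, filters and tools, the compared groups alone, a block on the replicate number, halved counts and each liver left out. No library or column was left out. Some listed genes enter the counts of their lists and are not reported here by name.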

Additional observations from a re-analysis of the deposited data

Results flagged for a closer look

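In each group of 4 livers, the gap between the highest or lowest liver and its neighbour was set against the group's whole range. This was done for 47 genes in 2 groups (94 checks). Gaps above Dixon's 95% critical value were flagged, as a description and not as a test. In all 6 were flagged. A chance rate of 1 in 20 holds for separate, normally distributed values. These are CPM of genes from the same livers, mostly picked by their calls, so the 6 are not set against that rate. Cyp2b13 was at 3.96 CPM in DT liver 1, against 0.381 to 0.916 CPM in the other DT livers, and Cyp2c55 was at 29.4 CPM in DT liver 1, against 1.33 to 4.57 CPM. Nr1i3 was at 354 CPM in DT liver 2, against 75.2 to 97.0 CPM in the other DT livers, and Nudt7 was at 94.4 CPM in DT liver 2, against 25.5 to 33.9 CPM. Lepr was at 165 CPM in DT liver 3, against 11.5 to 30.4 CPM. Moxd1 was at 2.13 CPM in saline liver 4, against 0 to 0.0407 CPM in the other saline livers.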

How the results depend on the processing

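The Cyp2b9 and Cyp2b13 differences between DT and saline livers changed sign with single livers. No member's difference changed sign under another scaling, filter or tool in which it was fitted. Cyp2b13 was not kept by the filter of at least 1 CPM in 3 libraries. By limma-voom the Cyp2b9 difference of DT against saline livers was -1.795, and -0.84 in the main fit. Leaving out 1 liver at a time gave log2 fold changes of 5.56 to 6.75 (saline against chow), -1.86 to 0.023 (DT against saline; 0.023 without saline liver 2) and 4.56 to 6.02 (DT against chow) for Cyp2b9. For Cyp2b10 they were -2.41 to -0.37, 3.49 to 4.45 and 1.56 to 3.60, and for Cyp2b13 3.13 to 6.03, -0.50 to 2.34 (-0.50 without DT liver 1) and 4.27 to 6.73. Called genes, in the same order of comparisons, numbered 0 to 4, 8 to 21 and 5 to 19 of the CAR targets, 1 to 4, 4 to 9 and 3 to 14 of the female-predominant genes, and 3 to 8, 2 to 15 and 7 to 19 of the male-predominant genes. The share called of all genes ran over 1.62 to 11.4%, 10.5 to 40.3% and 10.1 to 40.3% in these refits, highest in each without DT liver 2. Without DT livers 1 and 2 together, a choice made after seeing the data, Cyp2b9 was at -4.10 against saline and 2.32 against chow, and Cyp2b13 at -0.84 and 3.93. Calls were then 11, 21 and 21 for CAR targets, 5 for female-predominant genes in saline against chow, and 11, 14 and 19 for male-predominant genes. Of all genes, 18.9, 45.2 and 44.8% were called in that setting. For saline against chow, CAR targets called were 4 by DESeq2, 0 by limma-voom and 12 with the compared groups alone, and female-predominant genes 5, 1 and 5. The shares called of all genes were 10.7, 4.18 and 20.1%. The compared groups alone also gave 11 (saline against chow) and 3 (DT against saline) male-predominant genes, and 7 CAR targets and 5 female-predominant genes (DT against chow), where limma-voom gave 5 of the latter. Of all genes, the compared groups alone called 20.1, 14.5 and 12.5%, and limma-voom 16.4% for DT against chow. With no filter on low counts 1 female-predominant gene was called (saline against chow), and 2 and 7 male-predominant genes (DT against saline, DT against chow). That setting called 2.65, 10.4 and 11.1% of all genes in the 3 comparisons. The cause of these changes was not tested.

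Scaling by total counts moved the median of all genes by 0.13, 0.34 and 0.46 (log2) and the share of calls that were higher from 43.9, 65.2 and 64.5% to 67.0, 92.1 and 94.8%. Nr1i2 for DT against chow then changed sign, from -0.20 to 0.25 (edgeR adjusted p = 0.0881), uncalled in both. All genes called numbered 950, 3734 and 3919, against 1831 (saline against chow) by DESeq2, and 3105, 2303 and 2089 with the compared groups alone. The labels do not say that replicate numbers pair livers: the 10 same-number pairs correlated at -0.16 to 0.18, and 5 of 11 livers correlated best with their own number. With a replicate block 559, 2842 and 2210 genes were called, and 1 female-predominant gene for saline against chow. Of 1407 values of named genes under alternatives, 1173 kept direction and call, 228 lost the call, 5 gained it and 1 changed sign.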
